A study of Mus musculus with 6 samples.

Results

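The 43 genes described here encode chromatin and transcription regulators that human genetics has linked to autism. They were taken by symbol from a list that was chosen with earlier results of these data known. They fall into 12 writers, 4 erasers, 10 remodellers and 17 other factors. All 43 were found among 45501 named genes and all 43 were among the 15422 genes with enough counts to be tested. Total RNA was taken from homogenized prefrontal cortex of 8-week-old mice, giving 3 libraries labelled WT (Wildtype, replicates 1 to 3) and 3 labelled 16p11.2 duplication (heterozygous, replicates 1 to 3). Both groups share the C57BL/6 background, reached by 10 generations of backcrossing from a C57BL/6N and 129Sv hybrid. Since the labels do not state that every library came from its own animal, p-values reflect only the spread between these libraries. The 3 libraries of a group were not all from 1 animal, since they differed in Xist and Y-linked RNA. In a tissue homogenate, fewer cells of a type and less RNA per cell cannot be told apart.

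Writers add chemical marks to histones or DNA, erasers remove them, and remodellers use ATP to slide or evict nucleosomes. The other factors bind DNA, read marks or join enzymes into complexes, and together these proteins set which genes a neuron can transcribe. In the cortex they act in the birth and maturation of neurons, and mutations in many of them cause neurodevelopmental syndromes.

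The libraries held 12988457 to 21872271 counts, and of the 43 genes only Adnp and Kdm6b had fewer than 100 counts in any library. The genes of the duplicated segment checked the labels: of 23 tested, 20 were higher at an unadjusted edgeR p under 0.05, where 7.05% of all genes were (median log2 fold change 0.75). Of 27 listed, 4 were not tested, and 1 of the 23 was below 0. Adjusted over all genes, 0 of the 23 passed the edgeR test, with a lowest adjusted p of 0.129. Mapk3, the ERK1 kinase gene of that segment, was at 71.2, 73.4 and 64.0 CPM (counts scaled to a fixed library size) in the WT libraries, in replicate order, and at 95.6, 126 and 91.7 CPM in the duplication libraries, a log2 fold change of 0.59 ± 0.12. Summed neuron markers lay at 7187 to 7518 CPM in WT and 7282 to 7665 CPM in duplication libraries, so every library carried neuron RNA. Whether the tissue was prefrontal cortex was not tested by these markers. Summed meningeal markers (10 of 10 found, none at 0) lay at 31.86 to 43.02 CPM in WT and 47.7 to 89.8 CPM in duplication libraries, and 7 of the 10 were higher at an unadjusted p under 0.05. Summed astrocyte markers lay at 835.1 to 987.2 CPM in WT and 969.4 to 1098 CPM in duplication libraries, and microglia markers at 298.1 to 344.7 and 342.5 to 362.5 CPM. Endothelial markers lay at 113.7 to 127.2 CPM in WT and 115.2 to 142.4 CPM in duplication libraries, and oligodendrocyte markers at 1223 to 2166 and 1125 to 1530 CPM. What part these cell types have in the results was not tested. One WT library, replicate 2, stood apart from the other WT libraries on the first principal component, at 4.05 against -27.2 and -26.7, and towards the duplication libraries at 24.8, 17.8 and 7.23.

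The autism-linked regulators were lower in the duplication cortex in point estimate, without exception, but none passed the test over all genes. Each log2 fold change of duplication over WT was below 0, from -1.43 for Kmt2d to -0.07 for Kat6b, against 49% of all tested genes and 46.9% of tested protein-coding genes below 0. The median of the 43 was -0.34, against 0.0049 over all tested genes. Since earlier results of these data were known when the list was chosen, these values describe the list and do not test it. In the edgeR quasi-likelihood test with Benjamini-Hochberg adjustment over all genes, 0 of 43 passed, where 0% of all genes did so in either direction, and adjusted p ran from 0.174 to 0.611. At an unadjusted p under 0.05, 32 were lower and 0 higher, where 12.2% of all genes were lower and 7.05% higher. DESeq2 called 4 of the 43 lower (1.26% of all genes), which were Ep300, Bcl11a, Med13l and Setbp1, and limma-voom called 0. Gene names in the deposited table had slipped against their counts and were re-aligned. The 18 members in the stretch that needed no shift had a median of -0.35 with all 18 below 0, and the other 25 had -0.33 with all 25 below 0.

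**Figure D1:**
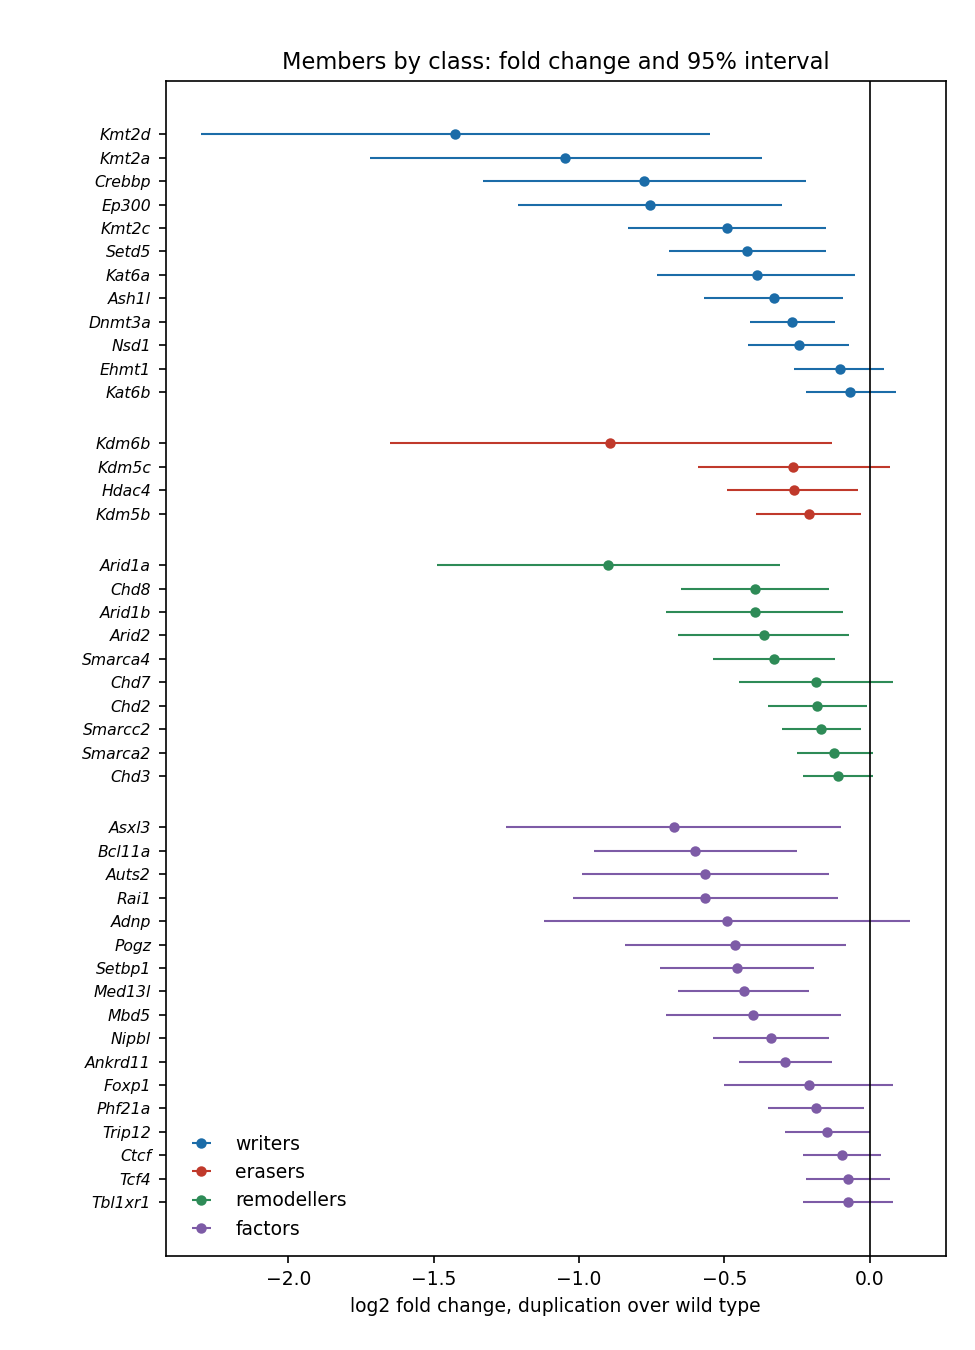
Log2 fold change of duplication over WT for each of the 43 genes (x axis), grouped by class and ordered within a class, with points for the estimate and bars for the 95% interval from the edgeR fit of 3 against 3 libraries. All points lie left of 0, from -1.43 for Kmt2d to -0.07 for Kat6b. The upper end of the interval is below 0 for 32 genes. As many were lower at an unadjusted edgeR p under 0.05, where 12.2% of all genes were.

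The difference lay mainly between WT replicates 1 and 3 and the duplication libraries. In 39 of the 43 genes every duplication library was below both of these WT replicates. These 39 are the 18 and the 21 genes given below, each with its share of all genes. WT replicate 2, however, was below both other WT libraries in 38 genes, against 35.4% of all tested genes. The groups did not overlap in 18 genes, all lower in duplication libraries, where 10.5% of all genes separated that way. In 21 genes only WT replicate 2 reached into the duplication range, where 13.9% of all genes showed that pattern. Relative to the duplication mean, the median log2 ratio was 0.41 for the mean of WT replicates 1 and 3 and 0.08 for WT replicate 2. That library lay above the duplication mean in 35 of 43 genes, and the share over all genes was not computed. Without WT replicate 2, edgeR called 31 of the 43 lower over all genes, where 10.7% of all genes were called lower. Without WT replicate 1, WT replicate 3 or duplication replicate 1, the number lower at an unadjusted p under 0.05 was 18, 17 and 17, in place of 32. The share of all genes lower at that threshold was 7.96%, 7.14% and 6.78% in those fits. Without a filter on low counts edgeR called 23 members lower (3.19% of all genes), and without both libraries numbered 2 it called 27 (7.02%).

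**Figure D2:**
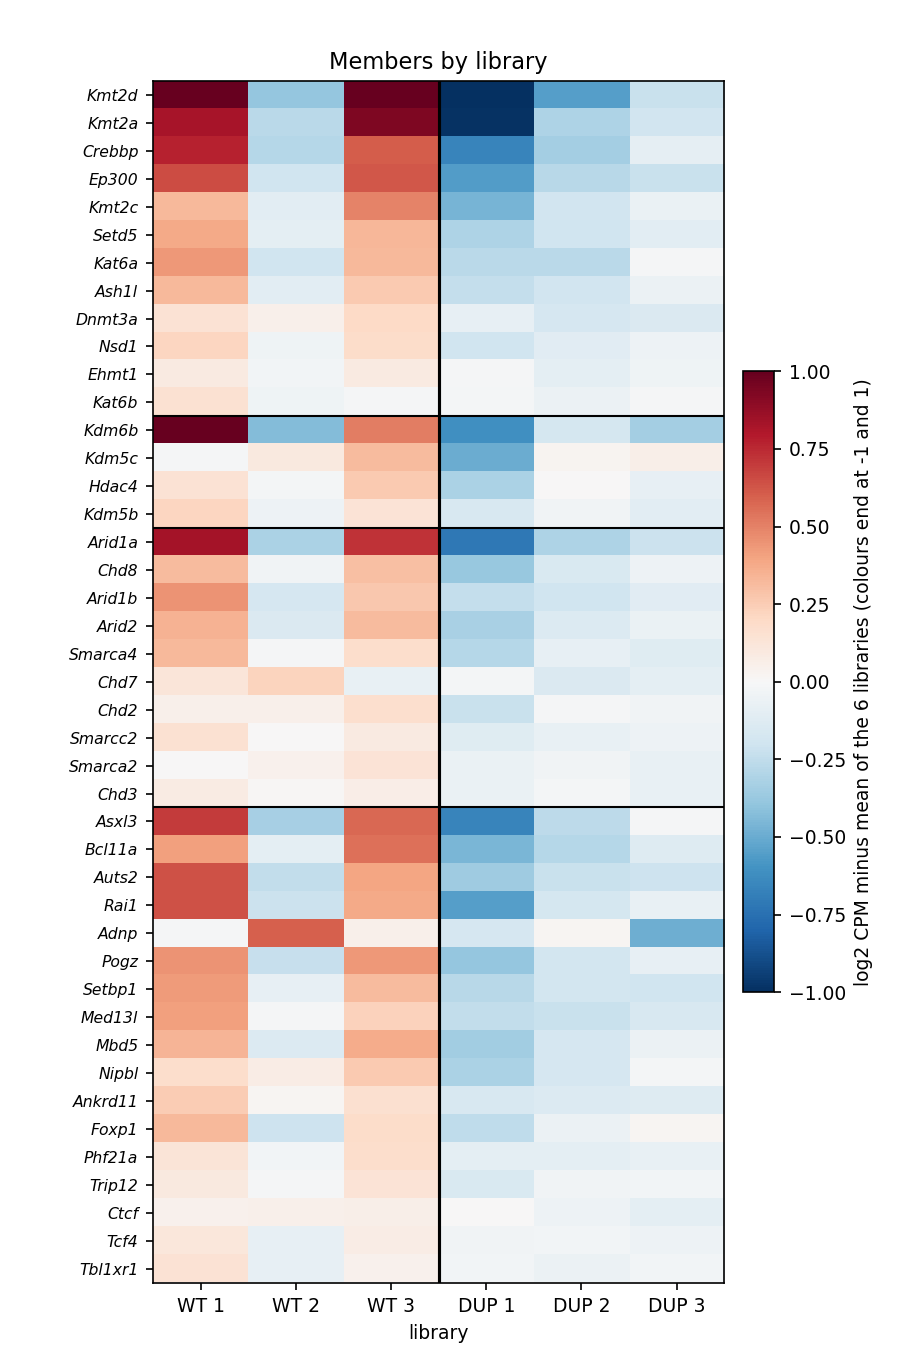
Log2 CPM of each gene minus its mean over the 6 libraries (colour, red above and blue below the mean, ending at -1 and 1), with genes in rows by class and libraries in columns. WT replicates 1 and 3 are red for nearly all genes, and WT replicate 2 is pale or blue for most. Duplication replicate 1 is the lowest of the 6 libraries in 33 genes, against 20.6% of all tested genes.

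The promoters of the members were compared with all promoters, since genes whose values differ together may also share sequence features. RefSeq promoters (GRCm38.p6) matched 30 of the 43 members with 38 start sites, and the 250 bases before each start were read. They held a median of 25.5 CpG pairs, against 6 over all 32851 promoters of that length, and a median GC content of 70%, against 52.4%. The GC box, to which Sp factors bind, was searched as GGGCGG on both strands and was present in 31 of 38 member promoters (81.6%), against 32.7% of all promoters. TATAAA on either strand was found in 1 of 38, against 12.4%. The cAMP response element TGACGTCA was in 0 of 38, against 1.55%, the NRF1 motif in 0 of 38, against 0.782%, and the YY1 motif ATGGCGGC in 1 of 38, against 1.03%. CpG-rich promoters are common among widely expressed genes, and this comparison is with all promoters, not with those of genes expressed in cortex. The 38 windows are not independent, since those of Kat6b overlap and so do some of Dnmt3a. Some, such as those of Crebbp and Ep300, lie wholly within annotated exons.

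The windows of 6 genes, chosen as examples among those without annotated exon bases, follow with GC boxes in capitals. Each runs from 250 bases before the start to the base before it, 5′ to 3′ on the gene's strand. They cover the paralogs Kmt2d (chr15:98871206-98871455, minus strand) and Kmt2c (chr5:25498784-25499033, minus), the BAF subunits Arid1a (chr4:133756770-133757019, minus) and Smarca4 (chr9:21615919-21616168, plus), and the factors Rai1 (chr11:60104763-60105012, plus) and Tbl1xr1 (chr3:22076402-22076651, plus), with log2 fold changes of -0.57 and -0.07.
Kmt2d: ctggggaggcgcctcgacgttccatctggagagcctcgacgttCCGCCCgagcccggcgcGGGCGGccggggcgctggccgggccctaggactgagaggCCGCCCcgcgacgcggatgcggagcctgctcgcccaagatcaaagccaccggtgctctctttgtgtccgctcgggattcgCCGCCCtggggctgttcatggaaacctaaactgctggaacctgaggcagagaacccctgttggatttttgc
Kmt2c: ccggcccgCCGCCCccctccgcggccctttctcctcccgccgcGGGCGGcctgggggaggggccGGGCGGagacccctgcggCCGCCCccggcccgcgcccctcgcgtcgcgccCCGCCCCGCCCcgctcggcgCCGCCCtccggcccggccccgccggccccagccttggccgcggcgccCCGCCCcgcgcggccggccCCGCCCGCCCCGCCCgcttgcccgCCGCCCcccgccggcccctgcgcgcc
Arid1a: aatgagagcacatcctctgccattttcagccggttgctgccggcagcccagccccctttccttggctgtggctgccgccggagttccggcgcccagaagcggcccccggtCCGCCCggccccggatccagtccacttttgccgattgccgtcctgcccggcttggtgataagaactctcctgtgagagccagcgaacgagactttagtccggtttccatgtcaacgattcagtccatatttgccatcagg
Smarca4: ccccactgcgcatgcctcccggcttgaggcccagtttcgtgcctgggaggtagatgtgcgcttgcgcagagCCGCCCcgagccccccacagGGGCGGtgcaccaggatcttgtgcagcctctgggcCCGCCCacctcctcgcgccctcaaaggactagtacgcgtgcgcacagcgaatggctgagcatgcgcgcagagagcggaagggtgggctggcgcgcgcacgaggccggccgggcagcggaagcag
Rai1: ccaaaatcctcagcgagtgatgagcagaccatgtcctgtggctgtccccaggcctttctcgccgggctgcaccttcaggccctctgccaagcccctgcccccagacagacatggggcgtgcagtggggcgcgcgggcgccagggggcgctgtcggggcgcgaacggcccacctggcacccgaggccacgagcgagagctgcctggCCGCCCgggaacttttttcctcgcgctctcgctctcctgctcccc
Tbl1xr1: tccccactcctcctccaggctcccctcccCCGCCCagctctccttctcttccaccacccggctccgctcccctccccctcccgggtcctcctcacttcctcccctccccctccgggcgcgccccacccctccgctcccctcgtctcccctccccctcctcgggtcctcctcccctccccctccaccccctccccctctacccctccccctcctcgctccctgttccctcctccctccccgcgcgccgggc
Kmt2d, the lowest gene, has 4 GC boxes in this window, and its paralog Kmt2c, at -0.49 against -1.43, has 12. Arid1a, Rai1 and Tbl1xr1 have 1 each in the windows shown and Smarca4 has 3, and a further Arid1a start site has 7. Among these windows the number of boxes did not follow the order of the fold changes.

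The writers included the 2 lowest log2 fold changes, those of Kmt2d and Kmt2a. Of 12 writers, 10 were lower at an unadjusted p under 0.05, where 12.2% of all genes were, and their median log2 fold change was -0.40. The KMT2 enzymes methylate histone H3 on lysine 4, a mark of active promoters and enhancers. Kmt2d (chromosome 15, 98831669 to 98871204, mm10), which acts mostly at enhancers, was at 126, 39.4 and 108 CPM in WT replicates 1 to 3 and at 22.6, 35.2 and 44.3 CPM in duplication replicates 1 to 3. WT replicates 1 and 3 were far above every duplication library, while WT replicate 2 lay among them, so the groups overlapped. Its log2 fold change was -1.43 ± 0.39 (SE; edgeR adjusted p = 0.174). Kmt2a (chromosome 9, 44803355 to 44881296), the founding member of the family and a target of leukaemia translocations, was at 147, 68.9 and 159 CPM in WT and 41.9, 67.0 and 72.8 CPM in duplication libraries. The same WT library was within the duplication range, and the log2 fold change was -1.05 ± 0.30. Kmt2c, the paralog that shares the enhancer role of Kmt2d, was at 155, 116 and 175 CPM against 90.2, 109 and 119 CPM, a smaller log2 fold change of -0.49 ± 0.15. Its groups overlapped through WT replicate 2 and duplication replicate 3.

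The acetyltransferases Crebbp and Ep300 are paralogous coactivators that acetylate histones at enhancers. Crebbp (chromosome 16, 4081328 to 4213997) was at 167, 80.3 and 149 CPM in WT and 62.2, 77.6 and 92.3 CPM in duplication libraries. WT replicate 2 again overlapped, and the log2 fold change was -0.78 ± 0.24. Ep300 (chromosome 15, 81585351 to 81652077) was at 80.7, 44.7 and 78.9 CPM in WT and 34.8, 42.3 and 43.9 CPM in duplication libraries. Here the groups did not overlap, but WT replicate 2 was above the highest duplication library by less than 1 CPM, 44.7 against 43.9. Its log2 fold change was -0.76 ± 0.20. The related MYST acetyltransferases Kat6a and Kat6b had log2 fold changes of -0.39 ± 0.15 and -0.07 ± 0.07. Kat6b was nearest to 0 of all 43, at 121, 106 and 108 CPM in WT and 108, 105 and 108 CPM in duplication libraries.

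The remaining writers act on DNA or on other histone residues. Dnmt3a, the de novo DNA methyltransferase that methylates neuronal genomes after birth, was at 93.6, 87.6 and 97.3 CPM in WT and 79.7, 75.1 and 76.6 CPM in duplication libraries, with no overlap and a log2 fold change of -0.27 ± 0.07. Nsd1, which methylates histone H3 on lysine 36, was at 360, 302 and 353 CPM against 271, 287 and 299 CPM. Its groups did not overlap either, at a log2 fold change of -0.24 ± 0.08. Setd5, a SET domain protein, separated the groups by less than 1 CPM, at 129, 92.7 and 125 CPM against 80.1, 86.5 and 92.0 CPM, with a log2 fold change of -0.42 ± 0.12. Ash1l, another lysine 36 methyltransferase, and Ehmt1, a lysine 9 methyltransferase that forms repressive chromatin, had log2 fold changes of -0.33 ± 0.11 and -0.10 ± 0.07, and in both WT replicate 2 overlapped the duplication range.

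**Figure D3:**
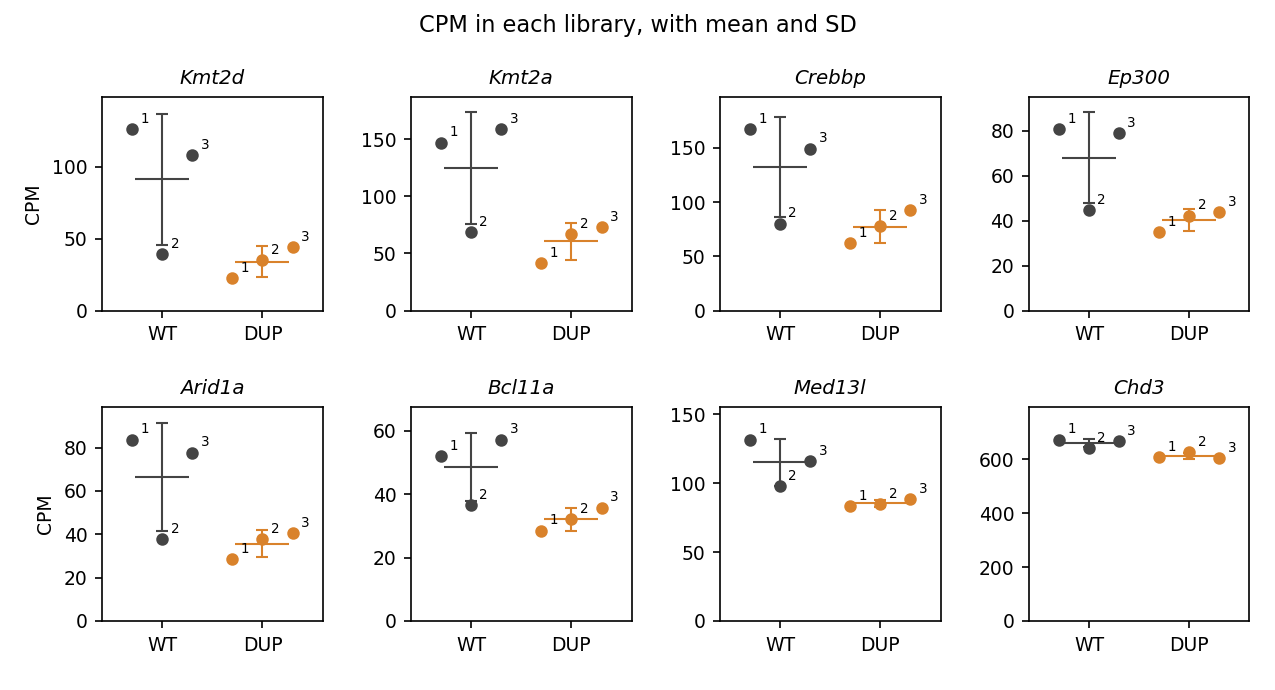
CPM of 8 genes in each library (y axis from 0), with points for libraries labelled by replicate number, a horizontal line for the group mean and bars for the SD (n = 3 per group). In Kmt2d, Kmt2a, Crebbp and Arid1a WT replicate 2 sits within the duplication range, whereas in Ep300, Bcl11a, Med13l and Chd3 all WT points are above all duplication points.

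All 4 erasers had point estimates below 0, none passed the adjusted test, and in none were the groups separate. Of 4, 3 were lower at an unadjusted p under 0.05 (12.2% of all genes), and the median log2 fold change was -0.26. Kdm6b, which removes the repressive lysine 27 methyl mark, was at 6.57, 2.29 and 4.53 CPM in WT and 2.004, 2.76 and 2.45 CPM in duplication libraries, a log2 fold change of -0.89 ± 0.34. Those values rest on 33 to 83 counts per library, and WT replicate 2 was within the duplication range. Hdac4, a class IIa deacetylase that shuttles between nucleus and cytoplasm, was at -0.26 ± 0.10, but 22.4% of its exon bases lie opposite those of Gm26720, and whether the counts used strand was not given in the sources used here. Kdm5b, a demethylase of lysine 4, was at -0.21 ± 0.08.

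Kdm5c, the X-linked lysine 4 demethylase, is known to escape X inactivation, so its level can differ with sex. It was at 71.1, 76.5 and 89.3 CPM in WT and 50.7, 72.9 and 74.4 CPM in duplication libraries, a log2 fold change of -0.26 ± 0.15. Duplication replicate 1 was the lowest by a wide margin, the groups overlapped, and without that library the log2 fold change was -0.10. Xist, the RNA of the inactive X, was at 0 CPM in WT replicate 1 and duplication replicate 1 and at 141 to 256 CPM in the other libraries, so the same replicate numbers were without Xist in both groups. Within each replicate number Kdm5c was lower in the duplication library. Sex was inferred from these counts, with a library coded female where Xist exceeded the summed Y-linked genes. The covariate therefore separated the libraries numbered 1 from all others, and those numbered 2 also carried some Y-linked RNA. With this inferred sex as a covariate the edgeR fit gave Kdm5c a log2 fold change of -0.28 ± 0.09 at an unadjusted p of 0.0185, in place of 0.104. The adjusted p of Kdm5c lay between 0.209 and 1 over all alternatives. In that fit all 4 erasers and 32 of the 43 genes were lower at an unadjusted p under 0.05 (11.3% of all genes).

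Remodellers held both large and small differences. Of 10, 7 were lower at an unadjusted p under 0.05, where 12.2% of all genes were (median log2 fold change -0.26). In 6 the groups did not overlap, where 10.5% of all genes were separate in that direction. The BAF complex is the mammalian SWI/SNF remodeller, and Arid1a and Arid1b are alternative subunits of it. Arid1a (chromosome 4, 133679008 to 133756769) was at 83.7, 37.7 and 77.7 CPM in WT and 28.5, 37.8 and 40.5 CPM in duplication libraries. WT replicate 2 was below 2 of the 3 duplication libraries, and the log2 fold change was -0.90 ± 0.26. Arid1b had a smaller value, -0.39 ± 0.14, at 102, 66.4 and 90.2 CPM against 63.2, 64.8 and 68.9 CPM. Arid2, of the related PBAF complex, was at -0.37 ± 0.13.

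Smarca4 and Smarca2 are the alternative ATPase motors of the BAF complex. Smarca4, also named Brg1, was at 160, 126 and 144 CPM in WT and 105, 121 and 118 CPM in duplication libraries, without overlap, at a log2 fold change of -0.33 ± 0.09. Smarca2, also named Brm, was at 306, 314 and 335 CPM against 291, 297 and 289 CPM, again without overlap, at -0.12 ± 0.06. The core subunit Smarcc2 was at -0.17 ± 0.06. Whether paralogs differ from each other in their response was not tested.

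CHD proteins are helicase-like remodellers with chromodomains. Chd8, a frequently mutated autism gene, was at 146, 114 and 145 CPM in WT and 89.9, 106 and 113 CPM in duplication libraries. WT replicate 2 cleared the highest duplication library by about 1 CPM, and the log2 fold change was -0.39 ± 0.11. Chd3, of the NuRD repressor complex, was the most abundant of all 43 genes per length, at 78.1 CPM per kb of exon in WT. It was at 672, 641 and 666 CPM in WT and 607, 625 and 605 CPM in duplication libraries, which separated the groups by a log2 fold change of only -0.11 ± 0.05. Chd2 was at -0.18 ± 0.08, but 18.4% of its exon bases lie on the same strand as those of 1810026B05Rik, so its value is uncertain. Chd7, mutated in CHARGE syndrome, had 107 to 178 counts per library and a log2 fold change of -0.18 ± 0.12 with overlapping groups.

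The log2 fold changes of the other factors ran from -0.67 for Asxl3 to -0.07 for Tbl1xr1. Of 17, 12 were lower at an unadjusted p under 0.05, against 12.2% of all genes (median log2 fold change -0.40). In 8 the groups did not overlap, against 10.5% of all genes in that direction. Bcl11a, a zinc finger factor of cortical projection neurons that also joins the BAF complex, was at 52.1, 36.6 and 57.2 CPM in WT and 28.5, 32.1 and 35.7 CPM in duplication libraries. The groups were separated by less than 1 CPM, between WT replicate 2 and duplication replicate 3, and the log2 fold change was -0.60 ± 0.16. Med13l, of the Mediator kinase module that gates RNA polymerase II, was at 132, 97.9 and 116 CPM against 83.1, 84.7 and 88.1 CPM. It had the smallest unadjusted p of the 43 and a log2 fold change of -0.43 ± 0.10, with all WT libraries above all duplication libraries. Ankrd11, a corepressor mutated in KBG syndrome, was at 205, 174 and 192 CPM against 153, 156 and 157 CPM, also without overlap, at -0.29 ± 0.07. Setbp1, which binds the SET oncoprotein, was at 81.4, 57.2 and 75.5 CPM against 49.8, 53.4 and 52.6 CPM, at -0.46 ± 0.12. Nipbl, which loads cohesin on DNA, was at 93.8, 87.7 and 99.5 CPM against 66.5, 74.0 and 81.8 CPM, at -0.34 ± 0.09.

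Several factors followed the pattern of Kmt2d, with WT replicate 2 inside the duplication range. Asxl3, of the Polycomb deubiquitinase complex, was at 33.5, 16.3 and 30.7 CPM in WT and 12.98, 17.2 and 20.4 CPM in duplication libraries, a log2 fold change of -0.67 ± 0.26. Auts2, which joins a Polycomb complex that activates genes, was at -0.57 ± 0.19 and Rai1, the gene of Smith-Magenis syndrome, at -0.57 ± 0.20. Pogz, a zinc finger protein with a transposase domain, was at -0.46 ± 0.17 and Mbd5, a methyl-CpG-binding domain protein, at -0.40 ± 0.13. In Auts2, Rai1 and Pogz WT replicate 2 was below duplication replicates 2 and 3, and in Mbd5 below replicate 3.

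The smallest differences among factors were those of Tbl1xr1, Tcf4 and Ctcf. Ctcf, the insulator protein that anchors chromatin loops, was at 72.8, 73.2 and 73.6 CPM in WT and 71.1, 68.3 and 66 CPM in duplication libraries, which did not overlap at a log2 fold change of -0.10 ± 0.06. Tcf4, the helix-loop-helix factor of Pitt-Hopkins syndrome, was at -0.08 ± 0.07, and Tbl1xr1, of the NCoR corepressor complex, at -0.07 ± 0.07. Trip12, a ubiquitin ligase, Phf21a, a reader of unmethylated lysine 4, and the forkhead factor Foxp1 were at -0.15 ± 0.06, -0.18 ± 0.07 and -0.21 ± 0.13. By these counts Adnp, a zinc finger factor, was the least abundant of the 43 per length, at 0.268 CPM per kb of exon in WT. It held 13 to 27 counts per library, and 82.1% of its exon bases are shared on the same strand with the predicted gene Gm20716, so its value is uncertain. Its log2 fold change was -0.49 ± 0.28.

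Other regulators of the same classes, listed by class, had a median nearer to 0 but also held values as low as the members did. This list too was chosen with earlier results of these data known. Of 124 such genes, 123 were tested (Dnmt3b was below the filter on low counts). The median log2 fold change was -0.08, with 42 lower and 0 higher at an unadjusted p under 0.05, against 12.2% and 7.05% of all genes. These genes also had shorter longest coding transcripts, at a median of 5.37 kb (117 genes) against 8.51 kb for the members. What part length has in the nearer median was not tested. Of the 123, 90 were below 0, against 49% of all genes, and the lowest was the writer Setd1b at -1.45 ± 0.38, named after its value was seen. By class, 9 of 24 writers, 8 of 28 erasers, 12 of 30 remodellers and 13 of 41 factors were lower at that threshold, and 0 of 123 passed the adjusted edgeR test. The genes of smallest p among the lower were Setd1a at -0.78 ± 0.19 and Setdb1 at -0.30 ± 0.07 among writers, and Tet2 at -0.44 ± 0.11 and Kdm2a at -0.29 ± 0.07 among erasers. Bptf and Srcap were at -0.51 ± 0.14 and -1.04 ± 0.29 among remodellers, and Asxl1 was at -0.47 ± 0.13 among factors. In Srcap WT replicate 2 overlapped the duplication range. Values above 0 were small: Ehmt2 and Suv39h1 were at 0.11 ± 0.06 and 0.11 ± 0.08, Hdac3 and Hdac11 at 0.12 ± 0.06 and 0.11 ± 0.06, Smarcd3 and Smarca5 at 0.13 ± 0.07 and 0.10 ± 0.07, and Cux2 and Mau2 at 0.10 ± 0.12 and 0.03 ± 0.06. Ehmt2, the partner enzyme of Ehmt1, was at 133, 127 and 123 CPM in WT and 138, 138 and 137 CPM in duplication libraries, so these partners had point estimates on opposite sides of 0. Their difference was not tested.

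Transcript length is a property that the list did not use, and the members share it. Their longest coding transcripts had a median of 8.51 kb, from 3.78 kb for Ctcf to 19.8 kb for Kmt2d, against a median of 3.31 kb over 12958 tested protein-coding genes with a transcript sequence. Over those genes the log2 fold change was lower in longer transcripts, with a Spearman coefficient of -0.38 across genes, which are not independent. The median log2 fold change was 0.10 for 2871 genes under 2 kb and -0.25 for 361 genes over 10 kb, and the share below 0 was 24.9% and 84.8%. The members' median was below that of all coding genes in each bin that held members. In the bin from 8 to 10 kb the 17 members had a median of -0.34 and all 470 genes one of -0.15, and over 10 kb the 9 members had -0.49. Among the 43 members the Spearman coefficient of the log2 fold change was -0.29 with length, -0.29 with transcript GC content and 0.51 with the WT level per kb of exon, which itself enters the fold change. Over all coding genes the last 2 were -0.05 and 0.11. The members' median GC content was 49.7%, against 50.1% over all coding genes. Among 117 of the other regulators, the Spearman coefficient of the log2 fold change with transcript length was -0.55.

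**Figure D4:**
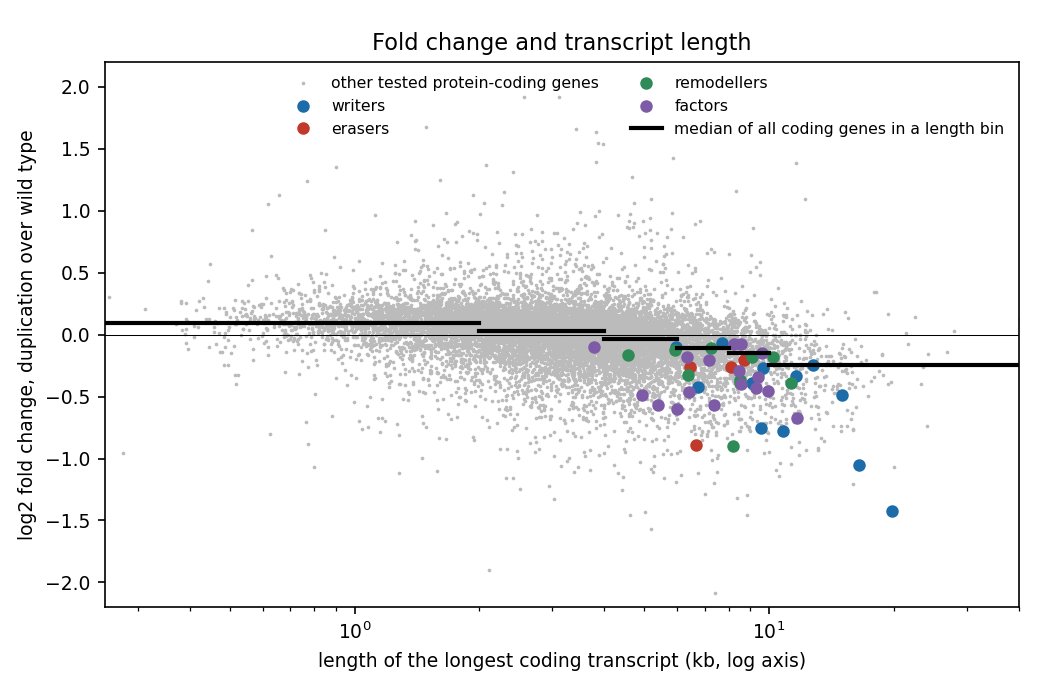
Log2 fold change of duplication over WT (y axis) against the length of the longest coding transcript (x axis, log scale, kb), with members coloured by class, other tested protein-coding genes in grey and bars for the median of all coding genes in each length bin. The bars descend from 0.10 under 2 kb to -0.25 over 10 kb, with most members below them, and 3 genes lie beyond each axis range.

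The level of long transcripts also differed between libraries. Coding transcripts over 10 kb had a median log2 CPM around the mean of the libraries of 0.24, -0.09 and 0.20 in the WT libraries and -0.20, -0.11 and -0.05 in the duplication libraries. The 43 members lay at 0.32, -0.08 and 0.26 in WT and -0.27, -0.15 and -0.08 in duplication libraries. In both groups of genes WT replicates 1 and 3 were above 0 and the other 4 libraries below it. What part transcript length has in the members' values was tested only through a correction. With a per-library correction for transcript length, chosen after seeing the data, 38 of the 43 genes were below 0 and the median was -0.18 in place of -0.34. Over all tested genes 7831 of 15422 were below 0 in that fit, at a median of -0.0033. Of the 43, 22 were lower at an unadjusted p under 0.05 in it, where 11% of all genes were, and 0 passed the adjusted edgeR test. Kmt2d, Arid1a and Kmt2a were then at -1.06 ± 0.29, -0.75 ± 0.22 and -0.73 ± 0.22. Kat6b, Tcf4, Tbl1xr1, Trip12 and Chd3 had values above 0, at most 0.08.

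Transcripts that lie in introns or await classification were also highest in WT replicates 1 and 3. TEC transcripts (gene models still to be tested by experiment) and sense intronic transcripts, 292 in all, had mean levels on the same scale of 0.47, -0.00032 and 0.53 in the WT libraries. In the duplication libraries the levels were -0.44, -0.43 and -0.12. This level had a correlation of -0.86 with genotype over the 6 libraries, so the 2 can hardly be told apart. A fit that included this level, with 3 residual degrees of freedom, gave 30 of the 43 genes values above 0 and a median log2 fold change of 0.07. Over all tested genes the median in that fit was -0.0013, and the share above 0 was not computed. Of the 43, 1 was lower and 2 were higher at an unadjusted p under 0.05 in it, where 1.39% and 1.49% of all genes were.

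**Figure D5:**
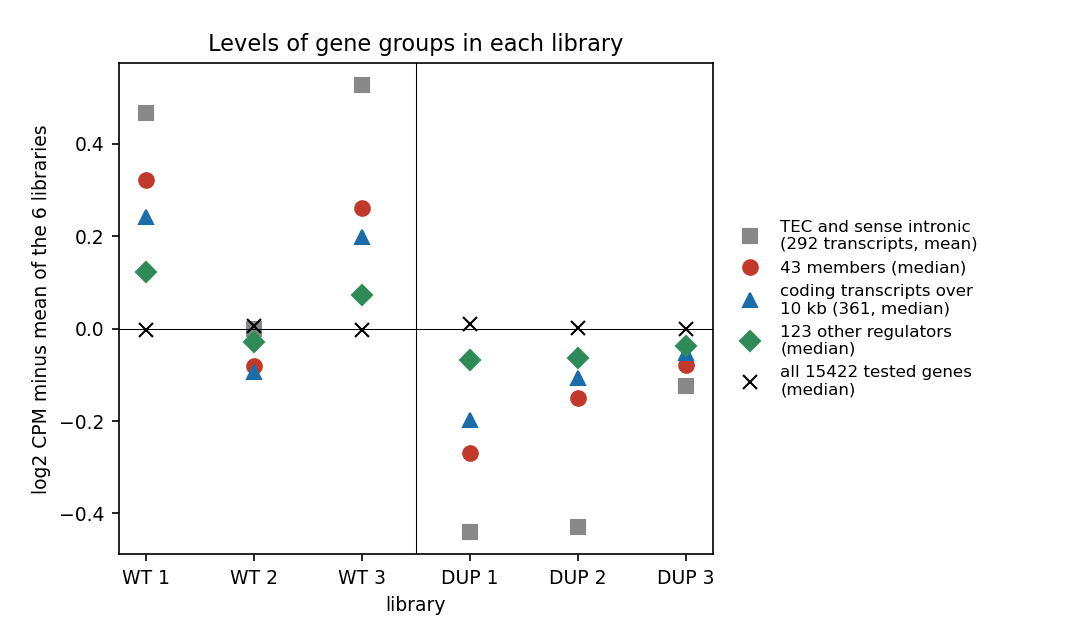
Level of 5 groups of genes in each library (y axis, log2 CPM minus the mean of the 6 libraries), as medians over genes or, for TEC and sense intronic transcripts, the mean. The members are at 0.32 and 0.26 in WT replicates 1 and 3 and at or below -0.08 in the other 4 libraries, and coding transcripts over 10 kb are at 0.24 and 0.20 in those WT replicates.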

How the data were processed

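RNA sequencing counts of 6 libraries were used, 3 per genotype. Per the submitters' processing notes, reads were processed with cutadapt, TopHat2 and HTSeq on mm10, with no versions. Their annotation and strand setting: not given in the sources used here. Per the labels' protocols, libraries were stranded total RNA depleted of ribosomal RNA. Whole-number counts per gene, not normalized, were deposited by the authors in 1 joint table and 1 table per library, whose 45801 values were equal. The joint table has 45807 lines and 45801 names, and 65.1% of names sit 1 to 6 lines away from their counts. Names were re-aligned by fixed offsets, and names within 25 lines of a change of offset were not used. The offsets were checked in 89 windows, each of 500 lines, and in all 89 the best-fitting offset was one used within the window. A window across a change of offset could match any offset it held. After re-alignment WT counts of Gad1 were 9931, in place of 5. Unnamed lines held 0.599% to 0.63% of a library's counts and were left out of library sizes. 
The genotypes were compared by edgeR 4.0.16 under R 4.3.3 (TMM factors, filterByExpr by group, quasi-likelihood F-test, Benjamini-Hochberg over all 15422 tested genes, threshold 0.05), without covariates. The SE is the absolute log2 fold change over the square root of F, and intervals use the moderated degrees of freedom. CPM are per TMM-scaled library size (Xist and Y-linked sums per plain library size). Log2 CPM was computed with prior count 2. Alternatives were DESeq2 1.42.0, limma-voom (limma 3.58.1), other scaling, other filters, a replicate block, covariates, left-out libraries and names as deposited. Positions, transcript lengths and overlaps are from GENCODE vM21, whose build matches mm10, and promoters from RefSeq. Reads carry no molecular identifiers, so counts are not counts of independent molecules. The members and lists were chosen with earlier results of these data known. Named genes were all members and, in each class of other regulators, the 2 with the smallest p in each direction, of which 1 is not reported here.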

Additional observations from a re-analysis of the deposited data

How the results depend on the processing

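The direction of all 43 genes was below 0 with upper-quartile factors, library size only, DESeq2, limma-voom, both other filters, the replicate block, sex as a covariate, the wider margin around offset changes, and each left-out library. How many passed was not stable. Adjusted over all genes, edgeR called 0 with all libraries, 23 without a filter on low counts (3.19% of all genes) and 27 without both libraries numbered 2 (7.02%), DESeq2 called 4, and none was called higher in these fits. Leaving out 1 library in turn gave 0 to 31 called lower, with 31 only without WT replicate 2, 0 called higher, 17 to 37 lower at an unadjusted p under 0.05, and medians of -0.415 to -0.262. With names as deposited, where 29 of the 43 names were tested, 18 were lower and 1 higher at an unadjusted p, against 12.2% and 7.06% of all genes in that fit. The 18 members that needed no shift kept their own counts there, while the other names carried counts of other genes. Of the names lower in that fit, 17 were also lower in the main fit. Adding the TEC and sense intronic level as a covariate left 1 lower at an unadjusted p (1.39% of all genes). The members' median was then 0.0729, against -0.0013 over all genes. The cause of these changes was not tested.

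Same-numbered libraries had correlations of their deviations of 0.102, 0.063 and 0.311. WT replicates 1 and 3 correlated best with the duplication library of their own number. WT replicate 2 correlated best with duplication replicate 1, at 0.157. Xist and Y-linked RNA also matched by number. The numbers were not taken as pairing in the main fit, and whether they mark pairs was not tested. With the replicate block, 32 members were lower at an unadjusted p (11.9% of all genes), 0 passed adjusted, the median was -0.341, all 4 erasers were lower at an unadjusted p in place of 3 (Kdm5c at -0.272), and over all genes 1 lower and 6 higher genes were called, in place of 0 and 0.

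With the TEC and sense intronic covariate, log2 fold changes above 0 among writers were 0.395 for Kmt2a, 0.189 for Kmt2c, 0.549 for Kmt2d, 0.104 for Setd5, 0.146 for Ash1l, 0.0109 for Ehmt1, 0.0486 for Nsd1, 0.201 for Ep300, 0.438 for Crebbp, 0.323 for Kat6a and 0.0424 for Kat6b. Values among erasers were 0.0013 for Kdm5b, 0.364 for Kdm6b and 0.011 for Hdac4. Values among remodellers were 0.0729 for Chd8, 0.386 for Arid1a, 0.18 for Arid1b and 0.197 for Arid2. Values among factors were 0.325 for Pogz, 0.127 for Bcl11a, 0.334 for Foxp1, 0.087 for Tcf4, 0.203 for Mbd5, 0.556 for Asxl3, 0.232 for Auts2, 0.00689 for Phf21a, 0.000816 for Setbp1, 0.0185 for Trip12, 0.309 for Rai1 and 0.0949 for Tbl1xr1. The other 13 members stayed below 0 in the covariate fit. Only 2 of the 43 were higher at an unadjusted edgeR p under 0.05 in it, where 1.49% of all genes were. The level had a correlation of -0.86 with genotype and the fit 3 residual degrees of freedom, so these single values are poorly determined. With the length correction, values above 0 were 0.0604 for Kat6b, 0.00563 for Chd3, 0.0759 for Tcf4, 0.0264 for Trip12 and 0.0695 for Tbl1xr1. Few counts limit Adnp, Kdm6b and Chd7, and the exon bases that Adnp shares with Gm20716 limit its value further. Having 3 libraries per group limits all values.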

Other observations

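Both libraries numbered 2 carried Xist together with a little RNA of Y-linked genes. Ddx3y, Eif2s3y, Uty and Kdm5d, summed, were at 12.4 CPM in WT replicate 2 and 12.3 CPM in duplication replicate 2, against 195 and 212 CPM in the replicates numbered 1, which had no Xist, and 0.290 and 0.627 CPM in those numbered 3. Xist was at 149 and 141 CPM in the libraries numbered 2. What this reflects was not tested.

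The 43 genes differed by replicate number. Duplication over WT, the median log2 ratio of the members was -0.57 for the libraries numbered 1, -0.06 for those numbered 2 and -0.34 for those numbered 3, with 43, 31 and 42 of 43 genes lower. Over all tested genes 47.4%, 50.4% and 50.1% were lower in the same comparisons.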
